A study of Mus musculus with 26 samples.

Results

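The 38 Hox genes examined here lie in 4 clusters, HoxA (10 genes), HoxB (10), HoxC (9) and HoxD (9). They were taken as a gene family by gene symbol and Ensembl identifier, with earlier results of these data known. They are 38 of the 57186 genes in the deposited count table of Fgf9 deletions and 38 of the 31053 genes in the count table of the Meis1 knockout. Polyadenylated RNA was sequenced from gonads of XY mouse embryos at embryonic stage E13.5, dissected free of the mesonephros. The 26 libraries form 6 groups: wild type (WT, n = 3), Fgf9 Δ306 (n = 3), Fgf9 Δ225 (n = 6), Fgf9 Δ104 (n = 4), Fgf9 Δ93 (n = 6) and Meis1 KO (n = 4). Fgf9 encodes a secreted growth factor that sustains Sertoli cell fate, and Meis1 encodes a homeodomain protein of the TALE class that binds DNA together with HOX and PBX proteins. All groups share the XY karyotype named in the labels, the stage and the tissue. The labels do not say where the deletions end, which embryos were littermates, on which dates they were taken, or how the Meis1 allele was made.

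Hox genes encode homeodomain transcription factors that give cells their position along the body axis. Within a cluster the genes lie in the order in which they are switched on along the trunk: genes at the 3′ end, of low paralogue number, act in the hindbrain and neck, and genes at the 5′ end, of high number, act in the lumbar region, tail, limb and urogenital ducts. Genes of the same number in different clusters are paralogues. HOX proteins bind a TAAT core, often with PBX and MEIS partners; CDX proteins switch on Hox genes of the trunk, and Polycomb and Trithorax proteins keep clusters silent or active. In the urogenital tract, Hoxa9, Hoxa10, Hoxa11 and Hoxa13 are expressed in successive stretches of the ducts next to the gonad, and Hoxa10 and Hoxa11 are needed for descent of the testis and for the uterus.

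Values are CPM, counts scaled to a common library total with edgeR's TMM factors, and levels of different genes are compared only per kilobase of exon (CPM per kb). A gene was called in a comparison at an adjusted p under 0.05 in edgeR's quasi-likelihood test. Total counts per library were 11582619 to 53392393 in the deletion table and 35468633 to 51732897 in the Meis1 table. Fgf9 was at 9.21 to 9.85 CPM in WT, 2.17 to 2.94 in Δ306, 2.30 to 4.75 in Δ93, 2.72 to 6.98 in Δ104 and 3.69 to 16.5 in Δ225. Sox9, a defining marker of Sertoli cells, was at 98.7 to 104.3 CPM in WT, so the labelled tissue showed its marker. In 7 libraries of the deletions (1 each of Δ306, Δ225 and Δ104, and 4 of Δ93) the summed level of 4 Y-linked genes was 0.0265 to 2.42 CPM, against 31.2 to 77.2 in WT and 3.96 to 36.2 in the other deletion libraries, while Xist reached at most 6.42 CPM in any of the 22 libraries. A few libraries stood apart in the Hox genes themselves: WT replicate 1, WT replicate 3, Δ306 replicate 1 and Δ225 replicate 3, described with the genes concerned. In whole gonads, fewer cells of a type and less RNA per cell cannot be told apart.

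The most abundant Hox genes per kb in WT gonads were 3 neighbours of the HoxD cluster, Hoxd8, Hoxd9 and Hoxd10. They lie in this order from 3′ to 5′ on the plus strand of chromosome 2 (HoxD cluster, chr2:74668310-74765142, GRCm38). Hoxd10 spans chr2:74691924-74695105, Hoxd9 chr2:74697727-74700208 and Hoxd8 chr2:74704615-74707933, all protein-coding in the GENCODE M21 annotation. Their promoters are printed because these genes carry most of the summed Hox level per kb in WT gonads and differed between groups. Each runs from 250 bases before to 50 bases after the RefSeq start (GRCm38.p6, plus strand), 5′ to 3′, with matches to the homeodomain core TAAT, on either strand, in capitals.
Hoxd10 (chr2:74691641-74691940): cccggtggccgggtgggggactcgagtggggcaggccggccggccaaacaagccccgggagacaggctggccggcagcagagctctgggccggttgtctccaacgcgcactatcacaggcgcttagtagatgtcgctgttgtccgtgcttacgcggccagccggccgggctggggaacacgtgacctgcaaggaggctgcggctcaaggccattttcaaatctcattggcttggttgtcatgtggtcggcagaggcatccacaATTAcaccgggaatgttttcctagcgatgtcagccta
Hoxd9 (chr2:74697513-74697812): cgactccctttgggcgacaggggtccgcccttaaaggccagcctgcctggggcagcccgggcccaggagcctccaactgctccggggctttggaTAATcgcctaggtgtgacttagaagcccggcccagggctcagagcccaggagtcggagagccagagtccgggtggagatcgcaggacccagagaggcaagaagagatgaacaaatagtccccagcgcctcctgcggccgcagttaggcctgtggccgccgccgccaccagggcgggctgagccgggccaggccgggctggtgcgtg
Hoxd8 (chr2:74704365-74704664): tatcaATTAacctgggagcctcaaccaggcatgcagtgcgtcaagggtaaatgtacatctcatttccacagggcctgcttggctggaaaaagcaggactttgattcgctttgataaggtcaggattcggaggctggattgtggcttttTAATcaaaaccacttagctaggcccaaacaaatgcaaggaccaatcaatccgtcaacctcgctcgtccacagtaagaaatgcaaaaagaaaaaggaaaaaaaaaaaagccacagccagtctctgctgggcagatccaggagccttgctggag
The Hoxd8 window held the core at 2 places, and the Hoxd9 and Hoxd10 windows at 1 each. None of the 3 held TGACAG (the MEIS motif searched), TTTATG (CDX) or TGATNNAT (PBX-HOX) on either strand. RefSeq promoters were at hand for 22 of the 38 genes, as 24 windows. The TAAT core occurred in 19 of these 24 windows and in 58.03% of 32851 promoters of the same length from all genes, TGACAG in 2 and 19.18%, TTTATG in 5 and 11.85%, and TGATNNAT in 4 and 8.846%. TAAT can lie within a longer PBX-HOX match, so these counts are not exclusive, and a match describes letters only.

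In WT gonads the HoxD cluster made up 61.6% ± 7.19 (SD, n = 3) of the summed Hox level per kb, HoxC 22.7% ± 1.62, HoxA 8.69% ± 4.28 and HoxB 6.97% ± 1.55. Summed levels of HoxD were 85.9, 93.8 and 99.7 CPM per kb in the 3 WT libraries, above the HoxC sums of 28.7 to 44.2 in every one of them. Hoxd9, of paralogue group 9, led all 38 genes with 59.6 CPM per kb ± 4.57, more than 3 times the level of the next gene, Hoxd8, at 18.0 ± 0.431. Hoxd10 followed at 12.1 ± 1.63 and Hoxc6 at 11.2 ± 1.79. In the deletion table, from which these values come, the last 2 overlapped between libraries. There, Hoxd9, Hoxd8 and the pair below them did not overlap with their neighbours in the order. Hoxc8, of the same paralogue group as Hoxd8, stood at 6.92 CPM per kb ± 0.352. From Hoxc8 downward every gene overlapped with the next.

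The leading genes of the other clusters were far lower. Hoxb9 led HoxB with 4.18 to 5.03 CPM per kb, and Hoxa5, which patterns the neck and lung, led HoxA with 2.24 to 5.49. In CPM, Hoxb9 was at 12.9, 11.7 and 10.8 in the WT libraries and Hoxa5 at 10.3, 4.20 and 7.04, so Hoxb9 was even between libraries and Hoxa5 was not. The paralogues of Hoxd9 reached 1.45 (Hoxa9), 4.59 (Hoxb9) and 2.84 (Hoxc9) CPM per kb in WT. Summed over clusters, paralogue group 9 was at 68.5 CPM per kb ± 7.06, group 8 at 25.8 ± 0.968, group 10 at 19.4 ± 8.53 and group 6 at 14.8 ± 4.45. Groups 1 and 13, the outermost ones, were at 0.149 ± 0.0907 and 0.234 ± 0.172.

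**Figure D1:**
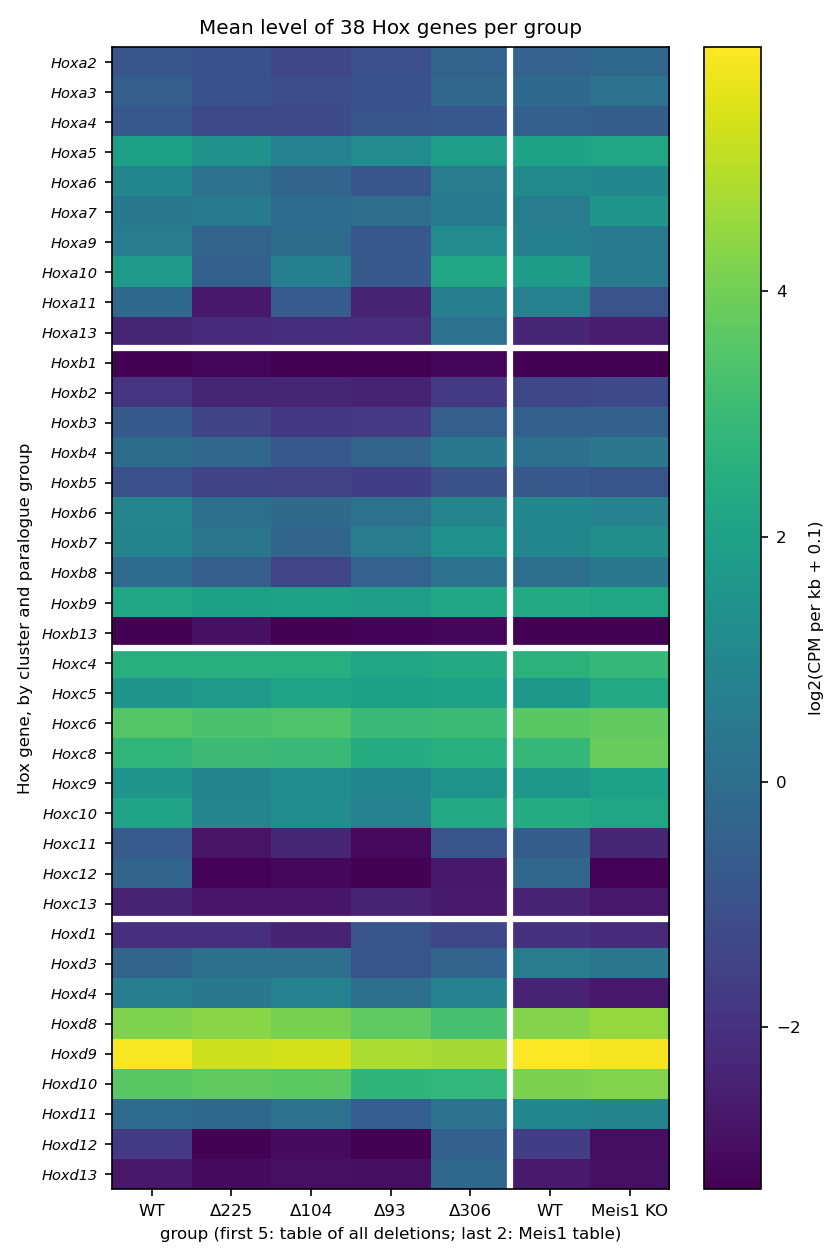
Mean level of each Hox gene per group, as log2(CPM per kb + 0.1), with rows ordered by cluster and paralogue group; the first 5 columns come from the table of all deletions and the last 2 from the Meis1 table. Hoxd9 is the brightest row in all columns, at 59.6 CPM per kb in WT of the deletion table, followed by Hoxd8 at 18.0.

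With detection set at a group mean of 0.5 CPM, 32 of the 38 genes were detected in WT, 34 in Δ306, 28 in Δ104, 27 in Δ225 and 27 in Δ93. All 9 HoxD genes were detected in Δ306, 2 of them (Hoxd12 and Hoxd13) through replicate 1, against 7 in WT. In WT, Hoxc11, Hoxc12 and Hoxd12 were detected only through replicate 3. The counts of detected genes thus rest in part on single libraries. Hoxb1, a hindbrain gene, and Hoxb13, a gene of the tail and prostate, did not exceed 0.22 CPM in any library, and neither entered the tests. Hoxc12, Hoxd12 and Hoxd13 also fell below the filter on low counts in both tables, which left 33 genes tested in the deletion table. In the Meis1 table Hoxc13 and Hoxd4 were filtered too, which left 31.

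The same 3 WT libraries were counted in both tables, so the counting itself could be compared. Of 34 Hox genes with at least 30 WT counts, 29 agreed within 1.5 times between the tables. Hoxd4, which acts in the neck region, had 18.27 times as many counts in the deletion table, and Hoxd3 0.5412 times, Hoxd11 0.4721 times, Hoxa11 0.5567 times and Hoxb2 0.6 times as many. Hoxd3 and Hoxd4 share 62.35% and 52.31% of their exon bases with other genes on the same strand in GENCODE M21, and the levels of all 5 genes are uncertain. Hoxa11 and Hoxb2 share 34.98% and 27.32% with genes on the opposite strand. Hoxd8, Hoxd9 and Hoxc8 share none on either strand, with ratios of 1.006, 1.009 and 1.015. Hoxd10 shares 5.727% on the same strand and had 0.7298 times as many counts in the deletion table. In the Meis1 table, Hoxd10 was at 15.3 to 21.2 CPM per kb in WT, above Hoxc6 at 10.4 to 14.3. It overlapped there with Hoxd8, at 18.7 to 19.9. The place of Hoxd10 in the WT order thus depended on the counting.

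In Δ306 gonads, Hoxd8 and Hoxd9 fell. Hoxd9 was at 135, 130 and 116 CPM in WT and at 49.4, 58.1 and 61.4 in Δ306. Every Δ306 library was below every WT library. The log2 fold change was -1.18 (SE 0.32, adjusted p = 0.0334, edgeR). Hoxd8 was at 48.8, 50.8 and 48.7 CPM in WT and at 24.1, 27.9 and 25.8 in Δ306, again without overlap, with a log2 change of -0.93 (SE 0.27, adjusted p = 0.0408). Hoxd10 was at 25.1, 21.6 and 19.2 CPM in WT and at 16.2, 9.85 and 12.9 in Δ306; the groups did not overlap, but the log2 difference of -0.76 (SE 0.26) did not pass the test (adjusted p = 0.0794). Over the tested Hox genes, 3 of 33 were called in this comparison, against 6.43% of all genes tested. The 1 called higher stands beside 2.96% of all genes, and the 2 called lower beside 3.46%. The summed level of HoxD was 46.5 to 49.2 CPM per kb in Δ306, and HoxD made up 44.5% ± 4.78 of the Hox level there. The calls for Hoxd8 and Hoxd9 rested on 3 libraries a group: leaving out any one library raised the adjusted p above 0.05 while the log2 fold changes stayed between -1.02 and -0.91 for Hoxd8 and between -1.28 and -1.12 for Hoxd9. Without the libraries of low Y-linked level none was called, with 2 Δ306 libraries left.

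In Δ93 gonads Hoxd9 and Hoxd10 fell as well. Hoxd9 ranged from 49.9 to 69.0 CPM over the 6 Δ93 libraries, with a median of 58.3, and no Δ93 library reached the WT range; the log2 fold change was -1.1 (SE 0.27, adjusted p = 0.00932). Hoxd10 ranged from 10.5 to 13.1 CPM with a median of 12.4, below all WT libraries, with a log2 change of -0.85 (SE 0.21, adjusted p = 0.0119). Hoxd8 ranged from 25.3 to 39.7 CPM with a median of 35.7, also below all WT libraries, but its log2 difference of -0.51 (SE 0.22) did not pass (adjusted p = 0.139). Of the HoxC genes, Hoxc6, a thoracic gene, ranged from 15.6 to 21.9 CPM with a median of 18.4, against 31.8, 25.2 and 23.6 in WT, a log2 change of -0.52 (SE 0.15, adjusted p = 0.0242) without overlap. In all, 7 of 33 Hox genes were called lower in Δ93 and none higher, against 14.1% of all genes called in either direction, 6.84% called lower and 7.23% called higher. The median log2 difference of the 33 genes was -0.56, beside 0.06 over all genes tested. It was similar against WT in Δ225 (-0.52) and Δ104 (-0.59), where no Hox gene was called, and 0.09 in Δ306. These comparisons share the same WT libraries. Without the libraries of low Y-linked level no Hox gene was called in Δ93 against WT, with 2 Δ93 libraries left. Hoxd9 then had a log2 difference of -1.28 (adjusted p = 0.111) and Hoxd10 of -0.87 (adjusted p = 0.15). Without WT replicate 1 the values were -1.05 for Hoxd9 (adjusted p = 0.0512), -0.74 for Hoxd10 (adjusted p = 0.0702) and -0.38 for Hoxc6 (adjusted p = 0.164), none of them called.

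Δ225 and Δ104 gonads were spread wide in the same genes. Hoxd9 ranged from 41.2 to 119 CPM in Δ225, with a median of 84.7; replicates 1, 2 and 3 were at 41.2, 65.0 and 55.9 CPM and replicates 4, 5 and 6 at 119, 116 and 104.4. The first of these had total counts of 11582619 to 23324009 and the others of 41255482 to 46821225. Δ93 replicate 1 had 20641724, beside 38301637 to 46914704 in the other Δ93 libraries. Over all genes tested, its deviations from the group mean correlated at 0.377 to 0.481 with those of Δ225 replicates 1 to 3. With Δ225 replicates 4 to 6 the correlations were -0.661 to -0.553. Δ104 replicate 4, with total counts of 20810635, went the other way, at -0.358 to -0.24 and 0.33 to 0.508. Δ104 replicates 1, 2 and 3, with total counts of 35182375, 19769955 and 17475220, were at 0.0327 to 0.178 and -0.314 to -0.0672. The part of depth or of a batch in the Δ225 split was not tested. In Δ104, Hoxd9 was at 57.7, 67.3, 113 and 118 CPM. Both groups thus held libraries near the Δ306 range and libraries near the WT range. Neither group was called against WT, with log2 differences of -0.61 (SE 0.27, adjusted p = 0.285) for Δ225 and -0.52 (SE 0.30, adjusted p = 0.386) for Δ104. Hoxd10 did not follow Hoxd9 in Δ225: it ranged from 22.3 to 26.9 CPM with a median of 22.9, its highest value in replicate 1, where Hoxd9 was lowest. In Δ104, Hoxd10 was at 11.9, 18.4, 33.7 and 25.7 CPM, low in the same replicates as Hoxd9.

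**Figure D2:**
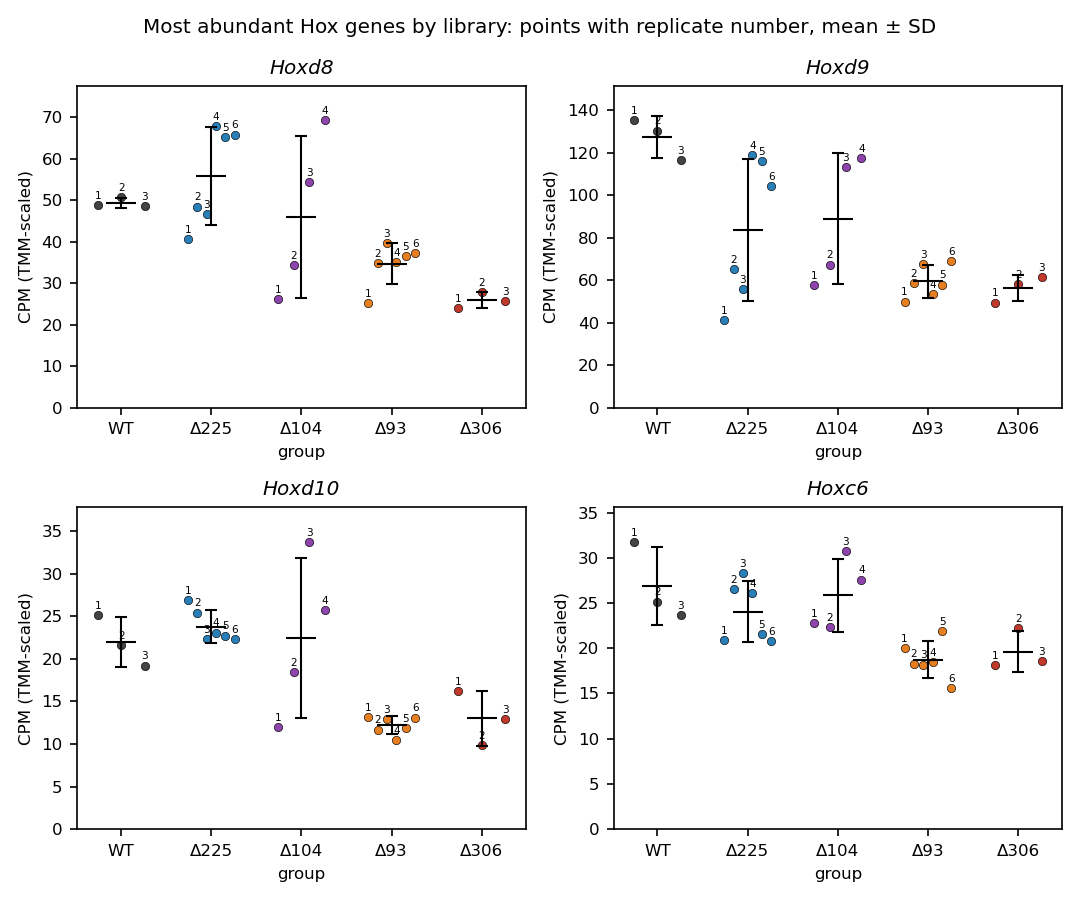
CPM of Hoxd8, Hoxd9, Hoxd10 and Hoxc6 in each library of the deletion table by group; points carry the replicate number, and bars give the group mean ± SD. For Hoxd9 all Δ93 and Δ306 libraries sit at or below 69.0 CPM and all WT libraries at or above 116, while Δ225 and Δ104 spread between 41.2 and 119.

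The direct comparisons of deletions set Δ225 against Δ306 and Δ93. Hoxd8 ranged from 40.7 to 67.9 CPM in Δ225, with a median of 56.9, above all Δ306 and all Δ93 libraries. It was higher by 1.11 on the log2 scale than in Δ306 (SE 0.24, adjusted p = 0.00553) and by 0.69 than in Δ93 (SE 0.19, adjusted p = 0.0134). Hoxd10 was higher by 0.87 than in Δ306 (SE 0.23, adjusted p = 0.0166) and by 0.96 than in Δ93 (SE 0.18, adjusted p = 0.000893), with no overlap in either comparison. Hoxd9, whose Δ225 libraries spanned the range of both other groups, differed by 0.57 (adjusted p = 0.19) and 0.49 (adjusted p = 0.123) and was not called. In Δ225 against Δ306, 7 of 33 Hox genes were called, against 13.2% of all genes. Of these, 2 were higher, beside 6.47% of all genes, and 5 lower, beside 6.74%. In Δ225 against Δ93, 6 of 33 were called, against 20.8% of all genes, so the share of Hox genes called was close to that of all genes. Of these, 5 were higher, beside 9.96%, and 1 lower, beside 10.8%. These comparisons share libraries with those against WT and are not independent of them. Without the 2 libraries Δ225 replicate 3 and Δ306 replicate 1, 4 genes were called in Δ225 against Δ306 and 5 in Δ225 against Δ93. Without the libraries of low Y-linked level, 1 and 0 were called, and Hoxd8 and Hoxd10 in Δ225 against Δ306 had log2 differences of 1.06 and 0.89 (adjusted p = 0.127 and 0.139).

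The other genes called between Δ225 and Δ93 moved less or were low. Hoxc6 ranged from 20.8 to 28.3 CPM in Δ225 (median 23.8) and overlapped with Δ93, with a log2 change of 0.36 (SE 0.12, adjusted p = 0.044); the call was lost in 15 of 20 alternatives (adjusted p up to 0.476). Hoxc8 ranged from 17.0 to 35.9 CPM in Δ225 (median 21.8) and from 11.2 to 23.6 in Δ93 (median 12.8), with a log2 change of 0.62 (SE 0.21, adjusted p = 0.0355), which became 0.43 (adjusted p = 0.134) without Δ225 replicate 3. The Hoxc8 call was lost in 11 of 20 alternatives. Hoxd3, a neck gene whose exons are shared with other genes, ranged from 2.91 to 6.63 CPM in Δ225 and from 0.82 to 3.11 in Δ93, with a log2 change of 1.15 (SE 0.30, adjusted p = 0.00992). Hoxd1, at the 3′ end of its cluster, was the exception in direction. It ranged from 0.16 to 0.39 CPM in Δ225 and from 0.19 to 1.72 in Δ93, a log2 change of -1.62 (SE 0.53, adjusted p = 0.0322), and the call was lost in 9 of 20 alternatives (adjusted p up to 0.371). Hoxd1 was also at 0.70, 0.48 and 0.49 CPM in Δ306 against 0.45, 0.17 and 0.18 in WT, which did not overlap, with a log2 difference of 1.03 that did not pass (adjusted p = 0.433).

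Markers of gonadal cell types were read in the same libraries. Of 4 markers of interstitial progenitors (Nr2f2, Pdgfra, Tcf21 and Maf), 2 were lower in Δ306 and 3 in Δ93 than in WT, and none was called in Δ225 or Δ104. Their summed level was 1022 to 1204 CPM in WT, 414 to 610.3 in Δ306, 468 to 544 in Δ93, 949 to 1224 in Δ225 and 407 to 1272 in Δ104, where the 4 libraries had 407, 798, 1272 and 1015. The summed level of 6 Sertoli markers was 1690 to 2108 CPM in WT, 26 to 312 in Δ306, 13.3 to 597 in Δ93, 338 to 1865 in Δ225 and 14.1 to 1628 in Δ104. None of the 6 was called in Δ306 and 1 was lower in Δ93. In Δ225, Amh, a hormone of Sertoli cells, was at 58.7, 405 and 311 CPM in replicates 1 to 3 and at 1352, 1440 and 1110 in replicates 4 to 6, low in the same libraries as Hoxd9. Of 6 pre-granulosa markers, 5 were higher in Δ306 and all 6 in Δ93, with sums of 378 to 737 and 431 to 1088 CPM against 64.4 to 111 in WT. Of 5 fetal Leydig markers, 3 were lower in Δ306 and 4 in Δ93, with sums of 39.8 to 91.3 and 50.1 to 314 CPM against 902 to 1554 in WT, 453 to 3044 in Δ225 and 37.8 to 1629 in Δ104. Of 4 coelomic epithelium markers, 1 was higher in Δ306 and 3 in Δ93, with sums of 99.6 to 126 and 97.3 to 219.7 CPM against 66.9 to 77.9 in WT. The part of cell composition in the HoxD differences was not tested.

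The 5′ genes of HoxA and HoxC were high in single libraries of several groups. Hoxa10 was at 24, 1.5 and 5.20 CPM in WT and at 23.4, 3.15 and 15.7 in Δ306, and 1 Δ104 library, replicate 2, was at 12.5 while the other 3 were at 1.39 to 3.43. In Δ93 it ranged from 1.04 to 2.26 CPM with a median of 1.68, and in Δ225 from 0.49 to 4.01 with a median of 1.95. The WT and Δ306 groups covered the same range, and Δ93 lay at its lower end. Hoxa10 was called lower in Δ93 than in WT, with a log2 change of -2.62 (SE 0.70, adjusted p = 0.0159), although the groups overlapped. Without WT replicate 1 the difference was -1.01 (adjusted p = 0.415).

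Hoxa11, Hoxc10 and Hoxc11 were also high in single WT libraries. Hoxa11 was at 3.72, 0.21 and 1.64 CPM in WT and ranged from 0.07 to 0.38 in Δ93, a log2 change of -3.26 (SE 1.1, adjusted p = 0.0493), which was -2.26 (adjusted p = 0.27) without WT replicate 1. Hoxc10 was at 15.5, 3.56 and 4.99 CPM in WT and from 2.30 to 4.14 in Δ93, a log2 change of -1.36 (SE 0.37, adjusted p = 0.0169), which was -0.46 (adjusted p = 0.454) without that library. Hoxc11 was at 0.35, 0.04 and 2.90 CPM in WT and did not exceed 0.08 in Δ93, a log2 change of -4.81 (SE 1.17, adjusted p = 0.00814), which was -2.34 (adjusted p = 0.242) without WT replicate 3. Without WT replicate 1, 2 Hox genes were called in Δ93 against WT, Hoxc11 among them. The Hoxa10, Hoxc10 and Hoxc11 calls were lost in 3 of 16, 3 of 16 and 3 of 15 alternatives, and the Hoxa11 call in 12 of 16.

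Δ306 replicate 1 was the only library of the 22 with high levels of the tail and limb genes. Hoxa13 was at 6.58 CPM there and at 0.57 and 0.60 in the other Δ306 libraries, against 0.00, 0.35 and 0.34 in WT. It was called higher in Δ306, with a log2 change of 3.44 (SE 1.02, adjusted p = 0.0454), and lower in Δ225 than in Δ306, with a log2 change of -3.07 (SE 0.79, adjusted p = 0.0144). These calls were lost in 12 of 14 and 5 of 16 alternatives. Without Δ306 replicate 1 the log2 changes were 1.29 (adjusted p = 0.45) and -0.93 (adjusted p = 0.519). Hoxd12 and Hoxd13 were at 4.70 and 5.70 CPM in that library. Elsewhere Hoxd13 stayed at or below 0.29 CPM, and Hoxd12 at or below 0.20 apart from 1.32 in WT replicate 3. WT replicate 3 in turn held the only Hoxc12 level above 0.18 CPM, at 2.14, beside its Hoxc11 level of 2.90.

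In Δ225 against Δ306, Hoxa10, Hoxa11, Hoxc10 and Hoxc11 were also called lower. Hoxa10 fell by 2.76 on the log2 scale (SE 0.70, adjusted p = 0.0133) and Hoxa11, at 0.00 to 0.53 CPM in Δ225 (median 0.06) against 8.21, 0.54 and 1.48 in Δ306, by 4.78 (SE 1.18, adjusted p = 0.0111). Hoxc10 ranged from 2.73 to 4.39 CPM in Δ225 with a median of 3.32, against 13.9, 4.37 and 9.40 in Δ306, and fell by 1.42 (SE 0.37, adjusted p = 0.0152). Hoxc11 did not exceed 0.26 CPM in Δ225, against 2.33, 0.21 and 0.11 in Δ306, and fell by 3.42 (SE 1.13, adjusted p = 0.0457). The Hoxc11 call was lost in 12 of 16 alternatives, beside 5 of 17 for Hoxa10, 3 of 17 for Hoxa11 and 4 of 17 for Hoxc10. Without Δ306 replicate 1, 2 Hox genes were called in this comparison, and Hoxa10, Hoxa11, Hoxc10 and Hoxc11 had adjusted p-values of 0.0765, 0.122, 0.138 and 0.676. Without Δ225 replicate 3, 14 were called, with no share of all genes taken for that fit.

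**Figure D3:**
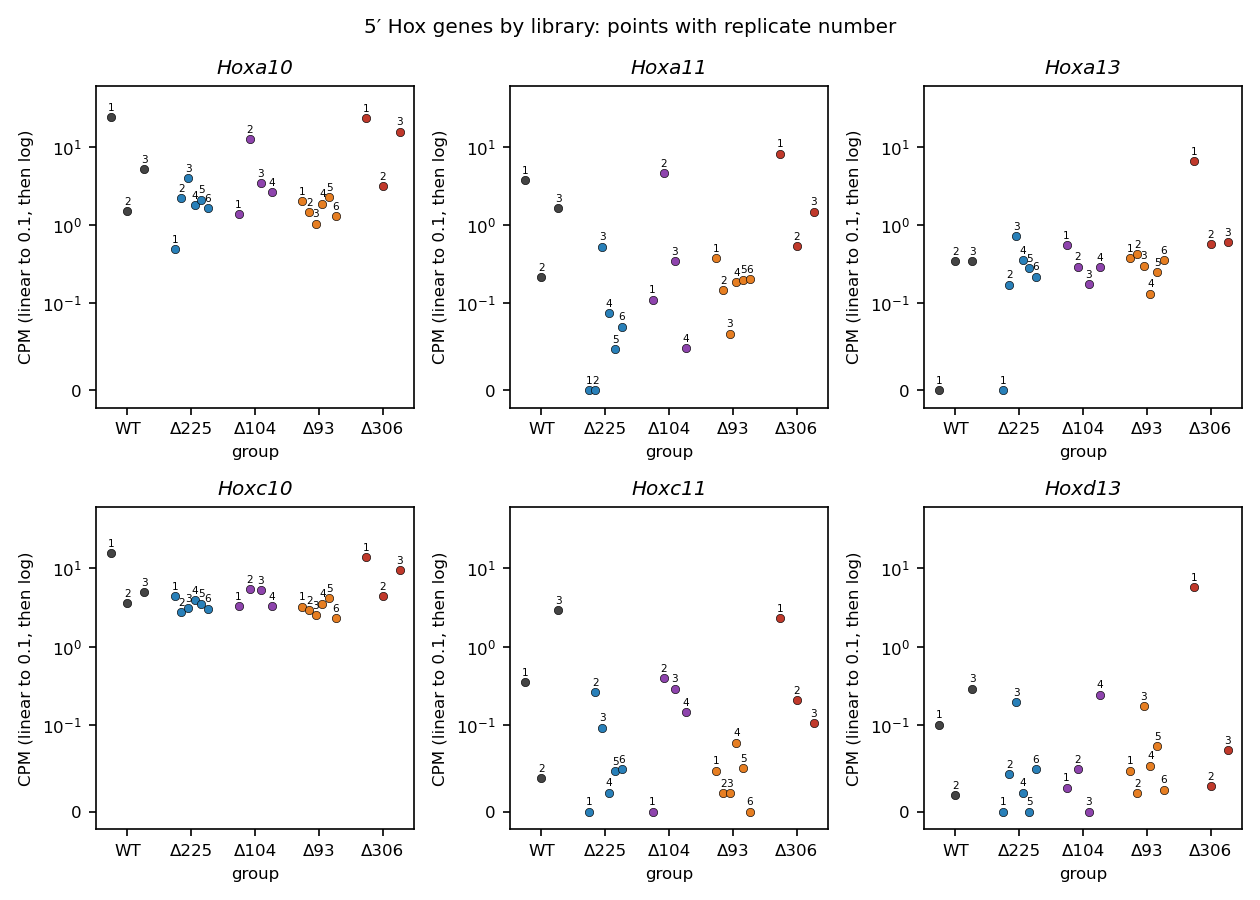
CPM of 6 Hox genes at the 5′ ends of their clusters in each library of the deletion table; the axis is linear up to 0.1 CPM and logarithmic above, and points carry the replicate number. Replicate 1 of WT and of Δ306 is high for Hoxa10, Hoxa11 and Hoxc10, and for Hoxa13 and Hoxd13 the Δ306 replicate 1 stands alone at 6.58 and 5.70 CPM.

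Other cell types were checked in these libraries. WT replicate 1 stood apart in germ cells: the summed level of 5 germ cell markers was 13.9, 482 and 720.2 CPM in WT, 367 to 777 in Δ306 and 542 to 980 in Δ93, and no marker of the 5 was called in either group. Of 8 markers of the mesonephric duct and tubules, 1 was called higher and 1 lower in Δ93 against WT, and none in Δ306, and their sum was 33.6 to 52.1 CPM in WT, 41.5 to 66.3 in Δ306 and 48.2 to 62.1 in Δ93. The lower one was Wnt9b, a signal of the mesonephric duct. Wnt9b was at 7.29, 0.25 and 0.92 CPM in WT, at 4.52, 0.30 and 2.75 in Δ306 and at 0.05 to 0.19 in Δ93, so it was highest in the libraries that were highest for Hoxa10. Within WT the duct markers did not follow the sum, which was lowest in replicate 1. Pax2, a duct and tubule factor, was at 7.06, 0.78 and 1.45 CPM in WT and Gata3, a factor of the duct, at 4.92, 1.32 and 1.21, both highest in replicate 1. Lhx1, at 4.77, 24.1 and 29.2 CPM, and the receptor Ret, at 1.46, 7.54 and 11.4, were lowest there. Wnt9b was at 2.32 CPM in Δ225 replicate 3 and 0.64 in Δ104 replicate 2. Pitx1, a marker of the hindlimb bud and its base, was at 7.02 CPM in Δ306 replicate 1 and at or below 1.82 in all other libraries. The other hindlimb marker, Tbx4, was at 6.32 CPM in that library, within its range of 0.43 to 18.2 elsewhere. The part of RNA from tissue beside the gonad, or of germ cell content, in these levels was not tested.

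The trunk genes of HoxA and the HoxB cluster were low, and none was called in any of the 11 comparisons. From Hoxa2 to Hoxa9 and over HoxB, WT replicate 1 was the highest WT library for Hoxa3, Hoxa5, Hoxa6, Hoxa9, Hoxb3, Hoxb4, Hoxb6, Hoxb7 and Hoxb8 among others. All 8 tested HoxB genes had a log2 difference below 0 in Δ225, Δ104 and Δ93 against WT, with medians of -0.55, -0.98 and -0.55, and 7 of 8 had one above 0 in Δ306, with a median of 0.20. These signs depended on single libraries. Without WT replicate 1, 4, 6 and 3 of the 8 were below 0 in Δ225, Δ104 and Δ93, with medians of 0.08, -0.21 and 0.06, and without WT replicate 2 only 2 of 8 were above 0 in Δ306, with a median of -0.10. The summed HoxB level was 8.19 to 16.1 CPM per kb in WT, 10.3 to 14.6 in Δ306, 6.00 to 10.8 in Δ93, 5.48 to 15.9 in Δ225 and 4.54 to 7.71 in Δ104. Against WT, the largest difference without overlap among these genes was Hoxa6 in Δ93. Hoxa6, a thoracic gene, was at 2.84, 0.78 and 1.32 CPM in WT and ranged from 0.27 to 0.57 in Δ93 (median 0.37), a log2 difference of -2.0 (SE 0.72, adjusted p = 0.0674) that did not pass. Hoxb3, a hindbrain and neck gene, was at 4.14, 1.48 and 1.08 CPM in WT and ranged from 0.36 to 0.99 in Δ93, with a log2 difference of -1.44 (adjusted p = 0.102).

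Δ104 gave similar values for these trunk genes. Hoxb3 was at 0.69, 0.98, 0.99 and 0.54 CPM in Δ104, a log2 difference of -1.48 (SE 0.66, adjusted p = 0.289). Hoxb7 was at 0.83, 1.18, 1.05 and 1.46 CPM against 3.54, 1.77 and 2.77 in WT, a log2 difference of -1.25 (SE 0.47, adjusted p = 0.236). Hoxa5 was at 3.25, 3.78, 3.14 and 2.14 CPM, a log2 difference of -1.22 (SE 0.59, adjusted p = 0.317). None of these 3 overlapped with WT and none passed the test. In Δ104 against WT the groups did not overlap for 4 of 33 Hox genes, beside 18.1% of all genes. Against Δ306, Hoxb7 in Δ104 did not overlap either, since Δ306 was at 5.22, 3.18 and 3.82 CPM, and the log2 difference was -1.85 (SE 0.48, adjusted p = 0.127).

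In Δ225, 1 library carried most of the trunk signal. Replicate 3 had Hoxa5 at 16.8 CPM while the other 5 libraries were at 1.76 to 3.02, Hoxa7 at 12.5 while the others were at 1.37 to 2.95, and Hoxb6 at 4.74 while the others were at 0.88 to 1.52. The summed level of 4 markers of striated muscle was 778 CPM in this library, and 21.8 to 87.7 in all other libraries of the deletion table. Δ93 replicate 4 showed a smaller rise of the same kind, with Hoxa7 at 6.71 CPM against 1.45 to 2.02 in the other 5. Its muscle markers summed to 33.3 CPM. Whether other tissue contributed to these levels was not tested.

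Over all 11 comparisons, the calls were confined to 12 of the 33 genes tested, and 5 of these lay in the 5′ part of HoxA and HoxC. Against WT, edgeR called no Hox gene in Δ225, beside 0.209% of all genes, or in Δ104, beside 0.061%. Unadjusted p-values under 0.05 were seen for 6 and 4 of 33 Hox genes, beside 16.1% and 15.7% of all genes, and DESeq2 called 3 and 0. No Hox gene was called in Δ225 against Δ104 (0.645% of all genes called), Δ93 against Δ306 (0.0785%), Δ104 against Δ306 (0.0654%) or Δ93 against Δ104 (0.0523%). In these 4 comparisons 1, 10, 11 and 10 of 33 Hox genes had an unadjusted p under 0.05, beside 10.6%, 9%, 11.1% and 14.5% of all genes, and DESeq2 called 0, 4, 2 and 4. The share of all genes called by DESeq2 was not taken, so its counts do not show an excess of Hox genes. In Δ93 against Δ306 the groups did not overlap for 9 of 33 Hox genes, beside 6.38% of all genes, all lower in Δ93. Among them were Hoxa10 (log2 difference -3.08, SE 0.70, adjusted p = 0.129), Hoxa11 (-4.14, SE 1.11, adjusted p = 0.22) and Hoxc11 (-4.48, SE 1.18, adjusted p = 0.191). In Δ104 against Δ306, 8 of 33 did not overlap, beside 11.2%, including Hoxa13 at -2.91 (SE 0.91, adjusted p = 0.208) and Hoxd1 at -1.75 (SE 0.72, adjusted p = 0.361). Non-overlap was seen for 6 of 33 Hox genes in Δ306 against WT, beside 37.6% of all genes, and for 6 of 33 in Δ93 against WT, beside 24.7%.

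**Figure D4:**
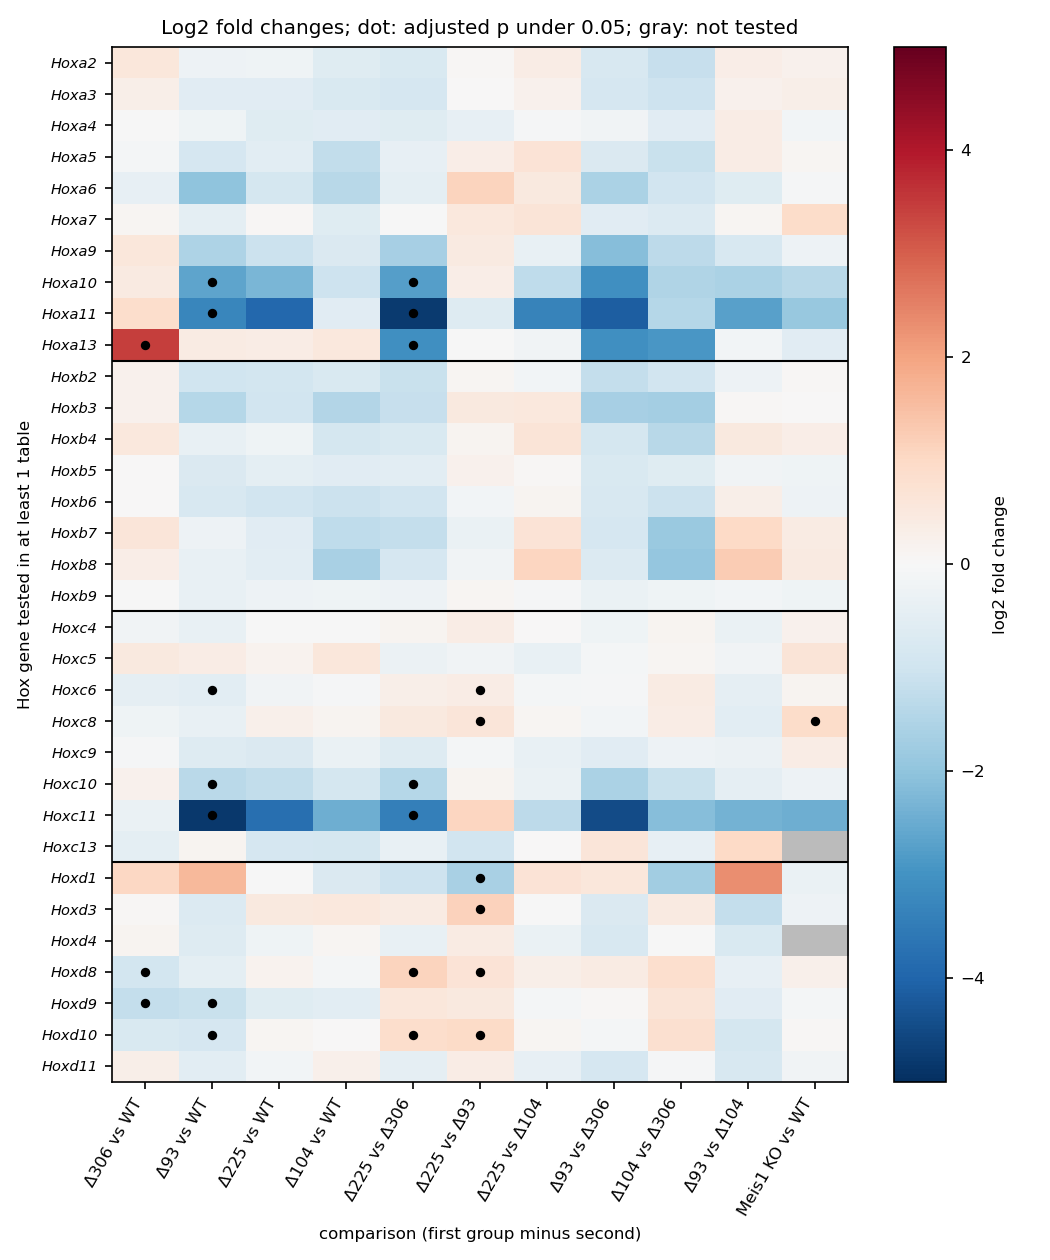
Log2 fold changes of the Hox genes tested, by cluster, in 11 comparisons (first group minus second); black dots mark an adjusted p under 0.05, and gray cells were not tested. Dots in the columns against WT lie on Hoxa13, Hoxd8 and Hoxd9 for Δ306, on 7 genes of HoxA, HoxC and HoxD for Δ93, and on Hoxc8 for Meis1 KO.

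Meis1 KO gonads were tested against the WT libraries of the Meis1 table. Meis1 was at 109, 62.1 and 64.2 CPM in WT and at 0.20 to 0.70 in the 4 knockout libraries. Hoxc8, a thoracic gene of the HoxC cluster (chr15:102990607-102994111, plus strand, GRCm38), was at 21.8, 21.1 and 19.5 CPM in WT and at 45.8, 40.8, 37.2 and 35.3 in the knockout. The groups did not overlap, and the log2 fold change was 0.94 (SE 0.11, adjusted p = 0.0163), 1.91-fold. It was the one Hox gene called of 31 tested, beside 1.8% of all genes. The log2 fold change was 0.86 to 0.99 over all alternatives run. The call was lost without knockout replicate 2 (adjusted p = 0.0775), knockout replicate 3 (0.0598), WT replicate 2 (0.0679) or WT replicate 3 (0.0681). Without WT replicate 1, 6 Hox genes were called, with no share of all genes taken for that fit.

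Other Hox genes were not called. Hoxc5 was at 11, 8.98 and 8.37 CPM in WT and at 18.6, 12.9, 16.1 and 11.7 in the knockout, without overlap, with a log2 difference of 0.65 (SE 0.18, adjusted p = 0.11). Hoxa7 was at 4.57, 4.29 and 3.61 CPM against 11.7, 5.78, 8.96 and 5.41, also without overlap, with a log2 difference of 0.94 (SE 0.28, adjusted p = 0.13). Hoxd8 was at 52.5, 54.6 and 51.4 CPM against 58.0, 63.0, 60.7 and 70.8, a log2 difference of 0.26 (SE 0.08, adjusted p = 0.144). These were, with Hoxc8, the 4 of 31 Hox genes whose groups did not overlap, beside 19.7% of all genes. Hoxd9 was at 145, 140 and 123 CPM in WT and at 114, 137, 124 and 127 in the knockout, which overlapped, and HoxD made up 58.4% ± 5.61 of the Hox level against 61.8% ± 7.38. The median log2 difference over the 31 genes was 0.01, beside 0.00 over all genes tested. The summed level of the 4 interstitial markers was 1116 to 1337 CPM in WT and 1257 to 1353 in the knockout, and none of them was called. Of the other markers, 1 of 6 Sertoli markers (Sox10) was called lower, 1 of 6 pre-granulosa markers (Foxl2, at 6.16 against 0.82 CPM) higher, and 2 of 4 blood markers and 1 of 4 striated muscle markers lower. The summed Y-linked level was 3.67 to 15.8 CPM in the knockout and 33.3 to 81.6 in WT. Their part in the Hoxc8 difference was not tested.

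**Figure D5:**
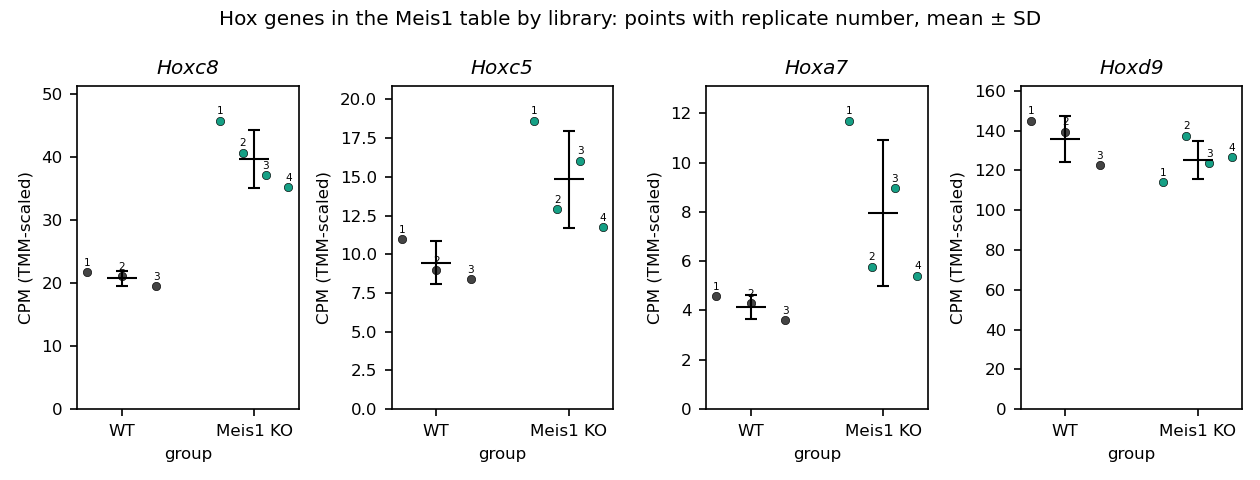
CPM of Hoxc8, Hoxc5, Hoxa7 and Hoxd9 in each library of the Meis1 table by group; points carry the replicate number, and bars give the group mean ± SD. The 4 knockout libraries lie between 35.3 and 45.8 CPM for Hoxc8, above the WT libraries at 19.5 to 21.8, while Hoxd9 overlaps.

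The proteins that work with or upstream of Hox genes were followed as lists. Of 9 TALE cofactors, 1 was lower in Δ306 and 1 higher and 1 lower in Δ93 than in WT. The lower one in both was Pknox2, a TALE homeodomain protein, at 92.7 CPM in WT, 34.5 in Δ306 and 38.8 in Δ93 (log2 fold changes -1.43, adjusted p = 0.00122, and -1.26, adjusted p = 0.000279). The higher one in Δ93 was Pbx3, a direct partner of HOX proteins, at 80.0 against 32.5 CPM (log2 fold change 1.3, adjusted p = 0.00913). In the Meis1 knockout Meis1 itself was the only cofactor of 9 called.

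Of 7 upstream regulators, 6 were tested; 1 was higher in Δ306 and 3 in Δ93. Cdx2, a caudal homeodomain factor that switches on trunk Hox genes in the early embryo, was at 0.00, 0.10 and 0.00 CPM in WT, at 2.11, 7.2 and 12.8 in Δ306 and at 2.31 to 13 in Δ93. In Δ104 it was at 12.7, 4.23, 0.12 and 0.05 CPM, present in the replicates in which Hoxd9 was low, and in Δ225 it did not exceed 0.12. It was called higher in Δ306 (adjusted p = 0.00895) and Δ93 (adjusted p = 0.0036), and no fold is given because WT was near 0. Cdx1, its paralogue, was at 1.75 CPM in Δ93 against 0.352 in WT (log2 fold change 2.31, adjusted p = 0.0272), and Lin28b, which delays developmental timing, at 16.8 against 6.79 (log2 fold change 1.31, adjusted p = 0.0159). The WT level of Lin28b was uneven, at 3.49 to 9.52 CPM over the same 3 libraries in the Meis1 table. Germ cell marker sums there were 16.4 to 823 CPM. The part of germ cell content in the Lin28b difference was not tested. The letters TTTATG occurred at 2 places in the promoter windows of Hoxa7, Hoxb8 and Hoxd4 and at 1 in those of Hoxd3 and Hoxd11. None of these 5 genes was called against WT, and Hoxd3 was called higher in Δ225 than in Δ93. The levels of Hoxd3, Hoxd4 and Hoxd11 are uncertain from the counting. Windows were at hand for 22 of the 38 Hox genes, without the called genes Hoxc6, Hoxc8, Hoxc10 and Hoxc11. Whether CDX proteins acted on Hox genes here was not tested.

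Of 16 Polycomb and Trithorax genes, 1 was lower in Δ306 and none was called in Δ93, Δ225, Δ104 or the Meis1 knockout against WT. The one was Kdm6b, a demethylase of the Polycomb mark, at 66.5 CPM against 112 (log2 fold change -0.75, adjusted p = 0.0284). Of 14 non-coding and flanking genes of the clusters measured in the deletion table, 10 were tested and none was called against WT in any deletion. Hottip, the RNA beside Hoxa13, was at 0.57 CPM in Δ306 replicate 1 and at or below 0.04 in all other libraries. Hotair, transcribed within HoxC between Hoxc11 and Hoxc12, was at 0.66 CPM in Δ306 replicate 1 and 0.69 in WT replicate 3, the libraries highest for Hoxc11, and at or below 0.08 elsewhere.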

How the data were processed

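The values deposited are raw read counts for each Ensembl gene, in 3 tables. The submitters' processing notes name STAR 2.7.10a, featureCounts, Subread, DESeq2 and mm10, with no order; the annotation and strand setting are not given in the sources used here. Libraries came from a directional kit, per the labels' protocols. The authors' deposited comparison table, which holds log2 fold changes, was read only to pair identifiers with symbols; its values were not used. Column names pair each column with a sample, except that the table of WT and 3 mutants names them only fgf9; the series design gives these as Δ306.

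Genes were tested with edgeR 4.0.16 (R 4.3.3): filterByExpr with the groups, TMM factors, quasi-likelihood F-test, Benjamini-Hochberg adjustment over all genes tested. All 22 libraries with WT and deletions went into 1 fit (22941 genes, 17 residual degrees of freedom) for 10 comparisons, and the Meis1 table into another (16791 genes, 5). The SE is the unshrunk log2 fold change divided by the square root of F. WT was counted and normalized separately in the 2 tables, so tests stay within a table. Exon lengths and coordinates are from GENCODE M21, GRCm38. The scripts were tested on simulated data. All values cover 26 libraries of 11582619 to 53392393 counts.

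Per-library values are given for called genes, for the leading gene of each cluster in WT, and for genes without overlap and a log2 difference of at least 1 (at most 3 per comparison). The genes and lists were chosen with earlier results of these data known. Where labels do not state separate embryos, p-values measure only the spread between these samples. In the deletion table, deviations of same-numbered libraries from their group means had a median correlation of 0.0166, beside 0.00134 for other pairs. In the Meis1 table the medians were 0.326 for the 3 same-numbered pairs and -0.189 for other pairs. The main fits carry no block, and a block was run as an alternative. Alternatives were DESeq2 1.42.0, RLE or no composition factors, no filter, a replicate block, the 2 groups alone, the earlier table of WT and Δ306, and fits without single or sets of libraries. No library exceeded 3 times its group's median of mesonephric markers, so that alternative was empty. One gene of the clusters and one cell type marker are not reported here.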

Additional observations from a re-analysis of the deposited data

Results flagged for a closer look

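Of 110 sets of 1 detected Hox gene in 1 group of 4 to 6 libraries, 25 had a library that lay far from the rest by Dixon's criterion at 95%. Its nominal rate of 1 set in 20 holds for independent sets of normally distributed values. Genes of 1 library vary together here, so the count does not measure an excess over chance. In Δ225, 11 of the 13 marked genes were high in replicate 3, the library with the striated muscle markers: Hoxa3 at 6.77 CPM, Hoxa4 at 1.64, Hoxa5 at 16.8, Hoxa6 at 3.48, Hoxa7 at 12.5, Hoxa9 at 9.24, Hoxb3 at 3.68, Hoxb4 at 4.79, Hoxb5 at 1.89, Hoxb6 at 4.74 and Hoxb7 at 4.64. They are genes of the middle of HoxA and HoxB. The other 2 were in Δ225 replicate 1, with Hoxd3 high at 6.63 CPM and Hoxd4 low at 2.73; these overlapping neighbours moved in opposite directions in that library.

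In Δ93, 5 genes were high in replicate 4, again of the middle of HoxA and HoxB: Hoxa5 at 7.08 CPM, Hoxa7 at 6.71, Hoxb6 at 4.59, Hoxb7 at 4.11 and Hoxb8 at 3.9. Hoxb3 was low in replicate 6 at 0.357 CPM and Hoxd11 high in replicate 2 at 3.62. Hoxd8 was low at 25.3 in replicate 1, the Δ93 library of lowest total counts. In Δ104, Hoxa11 was high in replicate 2 at 4.57 CPM. In Meis1 KO, replicate 3 was high for Hoxa10 at 7.25 CPM, Hoxa11 at 2.46 and Hoxc9 at 10.9.

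Between deletions, 13 differences passed the test of the difference itself (edgeR, adjusted p under 0.05). In Δ225 against Δ306 the log2 differences were -2.76 for Hoxa10, -4.78 for Hoxa11, -3.07 for Hoxa13, -1.42 for Hoxc10, -3.42 for Hoxc11, 1.11 for Hoxd8 and 0.87 for Hoxd10. In Δ225 against Δ93 they were 0.36 for Hoxc6, 0.62 for Hoxc8, -1.62 for Hoxd1, 1.15 for Hoxd3, 0.69 for Hoxd8 and 0.96 for Hoxd10.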

How the results depend on the processing

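None of the 24 called log2 fold changes of Hox genes changed sign under any alternative run; of all 361 pairs of a Hox gene and a comparison, 137 did in at least 1. Shares of all genes called were taken for the main fits only, so counts under the alternatives do not show an excess or lack of Hox genes. DESeq2 called 3 Hox genes in Δ225 against WT, 4 in Δ93 against Δ306, 2 in Δ104 against Δ306, 4 in Δ93 against Δ104 and 3 in Meis1 KO against WT. Without the filter on low counts, 1 was called in Δ306 against WT, 3 in Δ225 against Δ93 and 1 in Δ93 against Δ306. With a replicate block, 1 was called in Δ225 against WT, 3 in Δ93 against WT and 3 in Δ225 against Δ306, and no other count moved by over 1.5 times. In the deletion table, of 35 same-numbered pairs, 9 had a correlation over 0.1, with a median of 0.0166 and a range of -0.307 to 0.481. Of 3 such pairs between WT and Meis1 KO, 2 did, with a median of 0.326, beside -0.189 for other pairs. Whether the numbers pair the samples of either table was not tested. Without the libraries of low Y-linked level, 0 were called in Δ306, 0 in Δ93 against WT, 1 in Δ225 against Δ306 and 0 in Δ225 against Δ93, with fewer libraries. Without Δ225 replicate 3 and Δ306 replicate 1, an alternative chosen after seeing the data, 0 were called in Δ306 against WT and 4 in Δ225 against Δ306. Leaving out 1 library at a time gave 0 to 1 called in Δ306 against WT, 2 to 9 in Δ93 against WT, 0 to 6 in Meis1 KO against WT, 2 to 14 in Δ225 against Δ306, 3 to 7 in Δ225 against Δ93, 0 to 2 in Δ104 against Δ306 and 0 to 3 in Δ93 against Δ104, and 0 in Δ225 or Δ104 against WT, in Δ225 against Δ104 and in Δ93 against Δ306. Where 1 library of Δ306 or WT is left out, 2 remain. The cause of these shifts was not tested. Without composition factors the median over all genes moved from -0.01 to -0.11 (log2) in Δ225 against Δ306, and no called direction changed. Counts of genes near 0.1 CPM, such as Hoxc11 and Hoxd13, rest on few reads, and differences there were not detectable at this depth in most comparisons.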
